A study of Homo sapiens with 6 samples.

Results

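Open chromatin was compared at the loci of 7 transcription factors of the T lineage, GATA3, TCF7, LEF1, ETS1, IKZF1, TOX and RUNX3, in 6 cell lines derived from T-cell acute lymphoblastic leukaemia (T-ALL), which arises from developing thymocytes. The loci were defined by fixed windows of the human genome build hg19, from 70 kb at GATA3 to 370 kb at TOX, and every ATAC-seq peak that overlapped a window was taken. This gave 188 peaks of 116055 on chromosomes 1 to 22 and X, which merged across lines into 62 regions of 40110. The established lines TALL-1, MOLT-4, KOPT-K1, HBP-ALL, DND-41 and CCRF-CEM were used, each grown in RPMI medium with serum and antibiotics and represented by 1 library. No treatment, genotype change or control is named in the labels, and no normal T cells were included, so the lines can only be set against each other. In ATAC-seq the Tn5 transposase inserts tags into accessible DNA, and a peak marks a position where tags pile up above the local background. With 1 library per line there is no replicate error and no test of a difference between 2 lines, and a difference between lines cannot be told apart from a difference between preparations. The lines were not checked against marker genes, because no hg19 annotation was used here to place peaks at genes. The windows may also take in parts of other genes. Next in gene order in RefSeq (GRCh38.p14) are, for instance, HADH beside LEF1 and SKP1 beside TCF7. Only this order was looked up, so which neighbours reach into a window is not known. Which gene a peak belongs to was not determined.

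A T cell arises when a blood progenitor in the thymus receives Notch signals and switches on a small set of DNA-binding factors. TCF-1, the product of TCF7, and GATA3 act early in this switch, LEF1 binds the same DNA sequence as TCF-1 and shares much of its work, and Ikaros (IKZF1), ETS1, TOX and RUNX3 shape the later steps and the choice between CD4 and CD8 cells. Genes of this kind are often controlled by several promoters and by enhancers spread over long stretches inside and around the gene, which appear as separate ATAC-seq peaks. Much of this is known from mice.

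RefSeq promoters of GRCh38.p14 were at hand for 5 of the 7 genes, with 14 starts in all, and 6 of them are shown. Those shown for RUNX3 and GATA3 are the starts whose spacing is set beside that of a pair of shared regions below. TCF7 and LEF1 were taken for their uneven sets of peaks. A pair of regions shared by all lines was also found at TCF7 and IKZF1, and the 3 starts of IKZF1 are not shown. The 250 bases before each start are printed 5′ to 3′ on the gene's own strand. Capitals mark matches, on either strand, to motifs of 5 factor families: for GATA factors AGATAA or TGATAA, for TCF-1 and LEF1 CTTTGA, for RUNX factors TGTGGT or TGCGGT, for ETS factors CCGGAA and for Ikaros TGGGAA. In GRCh38.p14 the stretches lie at chr1:24930277-24930526 on the minus strand and chr1:24965011-24965260 on the minus strand for RUNX3, at chr10:8053391-8053640 on the plus strand and chr10:8054438-8054687 on the plus strand for GATA3, at chr5:134115363-134115612 on the plus strand for TCF7 and at chr4:108166302-108166551 on the minus strand for LEF1. The peaks are in hg19 and no coordinates were converted, so these sequences show the genes' promoters and are not assigned to peaks.
RUNX3 start 1: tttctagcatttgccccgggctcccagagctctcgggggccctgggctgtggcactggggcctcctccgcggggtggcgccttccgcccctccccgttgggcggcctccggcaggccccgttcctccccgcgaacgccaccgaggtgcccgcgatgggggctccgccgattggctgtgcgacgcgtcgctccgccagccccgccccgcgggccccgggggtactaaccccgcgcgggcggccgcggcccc
RUNX3 start 2: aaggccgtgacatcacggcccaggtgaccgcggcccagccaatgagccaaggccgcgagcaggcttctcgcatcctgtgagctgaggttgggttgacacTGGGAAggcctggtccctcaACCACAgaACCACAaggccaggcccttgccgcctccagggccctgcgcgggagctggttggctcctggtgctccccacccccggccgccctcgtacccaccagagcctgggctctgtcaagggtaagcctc
GATA3 start 4: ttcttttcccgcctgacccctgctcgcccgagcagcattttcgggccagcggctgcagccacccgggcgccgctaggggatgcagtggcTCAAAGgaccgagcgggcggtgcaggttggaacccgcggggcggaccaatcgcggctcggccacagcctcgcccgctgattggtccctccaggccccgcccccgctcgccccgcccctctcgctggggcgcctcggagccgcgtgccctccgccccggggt
GATA3 start 5: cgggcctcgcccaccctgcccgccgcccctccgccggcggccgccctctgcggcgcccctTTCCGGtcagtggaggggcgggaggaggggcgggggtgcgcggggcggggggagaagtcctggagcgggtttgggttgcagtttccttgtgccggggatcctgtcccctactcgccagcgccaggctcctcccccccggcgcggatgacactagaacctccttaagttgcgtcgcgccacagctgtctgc
TCF7 start 1: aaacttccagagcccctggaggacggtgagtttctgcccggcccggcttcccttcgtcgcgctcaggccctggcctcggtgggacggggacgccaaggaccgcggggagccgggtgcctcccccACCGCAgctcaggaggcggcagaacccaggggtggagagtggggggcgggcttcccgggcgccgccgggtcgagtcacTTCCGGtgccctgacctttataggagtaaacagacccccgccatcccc
LEF1 start 1: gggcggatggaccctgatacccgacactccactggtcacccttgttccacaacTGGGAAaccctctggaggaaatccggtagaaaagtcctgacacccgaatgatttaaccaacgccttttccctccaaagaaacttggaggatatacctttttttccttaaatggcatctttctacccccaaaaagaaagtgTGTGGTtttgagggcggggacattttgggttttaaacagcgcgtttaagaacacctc

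RUNX3 start 2 held a pair of RUNX matches close together and 1 Ikaros match, and RUNX3 start 1 held none of the marked motifs. GATA3 start 4 held the TCF-1 and LEF1 motif, and GATA3 start 5 held an ETS motif. TCF7 start 1 carried 1 RUNX and 1 ETS match, and LEF1 start 1 carried 1 RUNX and 1 Ikaros match. Over the 14 starts of the 5 genes, TGTGGT was found in 4, TGCGGT in 3, CCGGAA in 3, TGGGAA in 4, AGATAA in 1, CTTTGA in 1 and TGATAA in 0. Short motifs are common: of 35116 RefSeq promoters of the same length, 10.98% held TGTGGT, 5.84% TGCGGT, 14.5% CCGGAA, 20.8% TGGGAA, 9.17% AGATAA, 11.2% CTTTGA and 6.66% TGATAA. The E-box CANNTG, the motif of basic helix-loop-helix factors, which is not capitalised, was found in 8 of the 14 and in 61.8% of all. A match says only that these letters are present.

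The windows were richer in open chromatin than the genome as a whole. They held 51.7 merged regions per Mb, against 13.6 per Mb over the span of chromosomes 1 to 22 and X, and the peak density of single lines was from 3.29 times (DND-41) to 4.60 times (KOPT-K1 and TALL-1) that line's density over the span. Windows around genes were not compared with windows around other genes, so this describes the loci and sets nothing apart about T-lineage factors. HBP-ALL had the most peaks in the windows, 38, followed by KOPT-K1 with 34, CCRF-CEM and TALL-1 with 31 each, MOLT-4 with 30 and DND-41 with 24. This order did not hold when the lists were cut to their strongest 16507 peaks each, the length of the shortest: TALL-1 then had 31, KOPT-K1 28, HBP-ALL 27, MOLT-4 26, DND-41 23 and CCRF-CEM 22. TALL-1 has the shortest list, so this setting leaves it whole and TALL-1 keeps every peak in every window by construction. Over chromosomes 1 to 22 and X the lists held 22367 peaks in CCRF-CEM, 22055 in HBP-ALL, 19114 in MOLT-4, 18114 in KOPT-K1, 17898 in DND-41 and 16507 in TALL-1, so the order of peak numbers at these loci depends on how many peaks of each list are used.

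**Figure D1:**
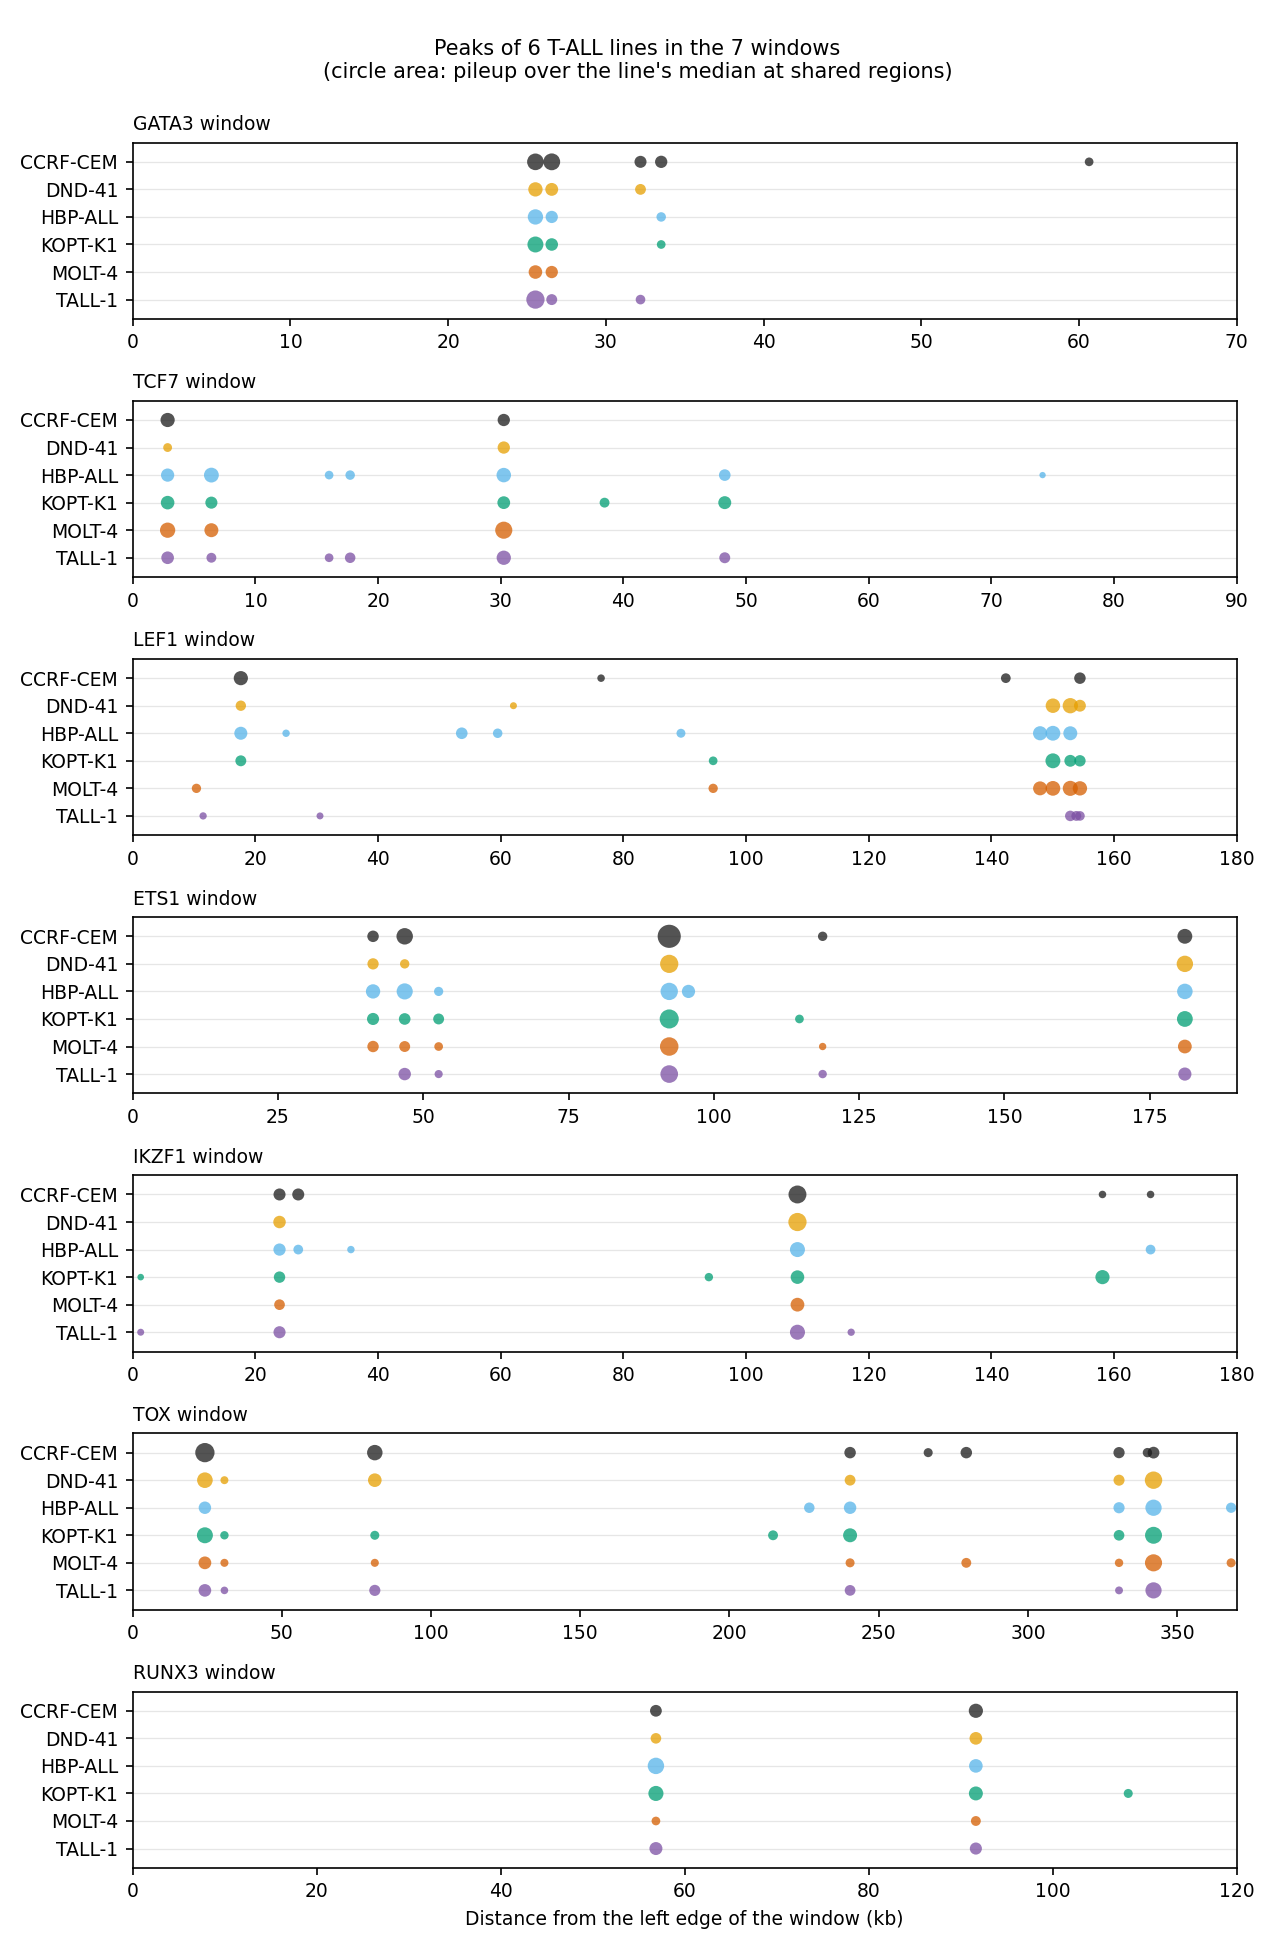
Peaks of the 6 T-ALL lines (rows) in the 7 windows, drawn as a circle per region and line. The x axis is the distance in kb of the region's mean summit over lines from the left edge of the window. Where a line had a further peak in the same region, only its strongest is drawn. Circle area is the tag pileup divided by the line's median at regions shared by all lines. Columns of 6 circles mark shared regions, such as the pair in the GATA3 window. LEF1 has no such column, and TCF7 shows 2 circles each in CCRF-CEM and DND-41 and the most in HBP-ALL.

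Of the 62 regions, 15 (24.2%, exact binomial 95% interval 14.2% to 36.7%) held a peak in every line, against 22.6% of all merged regions. Another 24 (38.7%, 26.6% to 51.9%) held a peak in 1 line only, against 43.2% of all. The remaining 23 regions were shared by 2 to 5 lines: 10 by 2 lines, 4 by 3, 5 by 4 and 4 by 5. Both shares of all merged regions lie inside these intervals, so with 62 regions the sharing at the 7 loci was not distinguishable from that of accessible DNA in general. By line, HBP-ALL had a peak in 37 of the 62 regions (59.7%, against 54.5% of all merged regions) and KOPT-K1 in 34 (54.8%, against 44.8%). CCRF-CEM had a peak in 31 (50.0%, against 55.4%), TALL-1 in 31 (50.0%, against 40.7%), MOLT-4 in 29 (46.8%, against 47.3%) and DND-41 in 24 (38.7%, against 44.3%). The exact intervals of these shares, such as 41.7% to 67.5% for KOPT-K1 and 37.0% to 63.0% for TALL-1, include the line's share of all regions in each of the 6 lines. The binomial intervals cover counting error only.

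**Figure D2:**
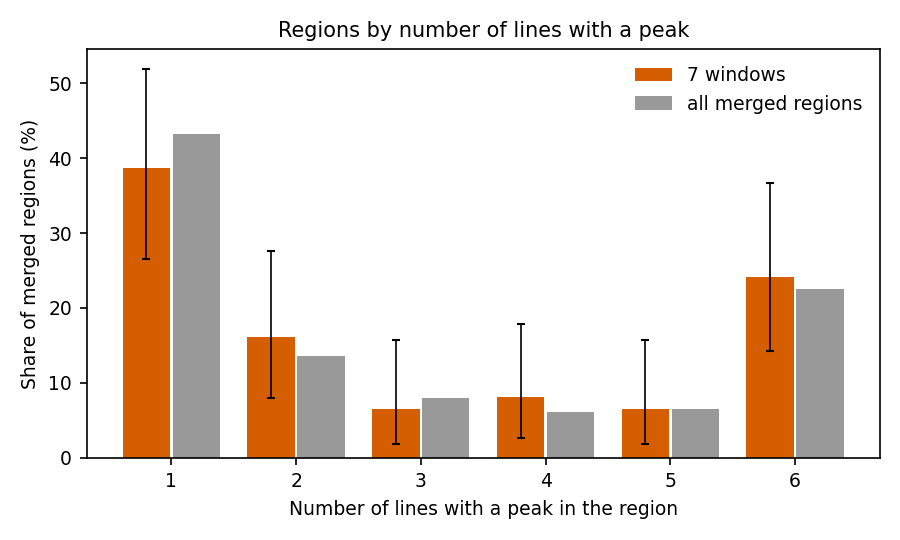
Share of merged regions (y axis, percent) by the number of lines with a peak (x axis), for the 62 regions of the 7 windows (orange, with exact binomial 95% intervals) and for all 40110 merged regions (grey). The grey bars lie within the orange bars' intervals in all 6 classes.

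Height was read as the pileup, the number of tags stacked at a summit, recovered from the authors' fold and p-value. Shared regions were the tall ones: the median over the lines had a median of 34.5 tags at the 15 shared regions of the windows and 14 tags at the 24 line-only regions, against 38 and 13 tags over all merged regions of the same classes. A region is shared only if a peak was called in all 6 lists, so low regions tend to fall out of this class by construction. The medians of the lines at shared regions of all chromosomes were 44 tags in TALL-1, 40 in DND-41, 39 in HBP-ALL, 36 each in MOLT-4 and KOPT-K1, and 31 in CCRF-CEM. To compare lines, a relative pileup was therefore used: the log2 pileup minus the 6-line mean, shifted so that each line's median over 9045 shared regions is 0. A relative pileup of at least 1 or at most −1 in some line was found in 1 of the 15 shared regions of the windows, against 12.5% of the 9045. The range of relative pileups between the highest and the lowest line had a median of 1.03 in the windows, against 1.06 over all shared regions. In 10 of the 15 regions the exact Poisson 95% intervals of some pair of lines, put on the scale of relative pileup, did not overlap, against 55.9% of the 9045, and in the other 5 the intervals of all lines overlapped. These intervals treat tags as independent and hold no spread between libraries.

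**Figure D3:**
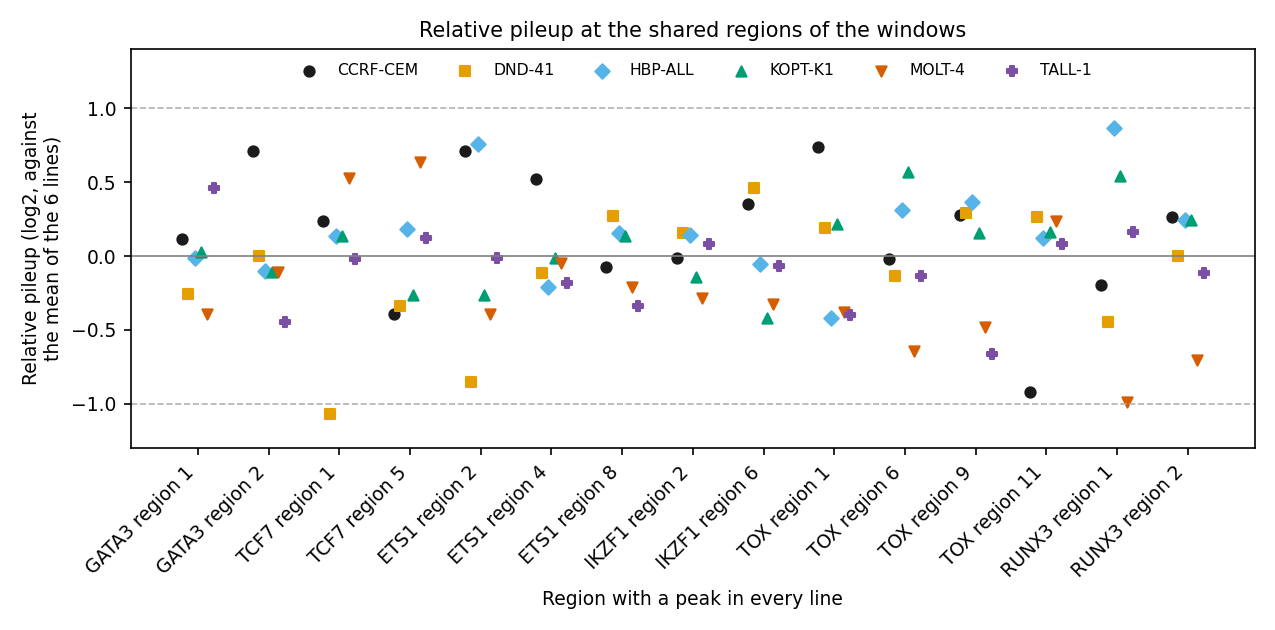
Relative pileup (y axis, log2 against the 6-line mean, with each line's median over shared regions set to 0) at the 15 regions of the windows with a peak in every line (x axis), 1 symbol per line; dashed lines mark 1 and −1. DND-41 at TCF7 region 1 (−1.07) is the only value past a dashed line; MOLT-4 at RUNX3 region 1 (−0.99) and CCRF-CEM at TOX region 11 (−0.92) come next.

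**Figure D4:**
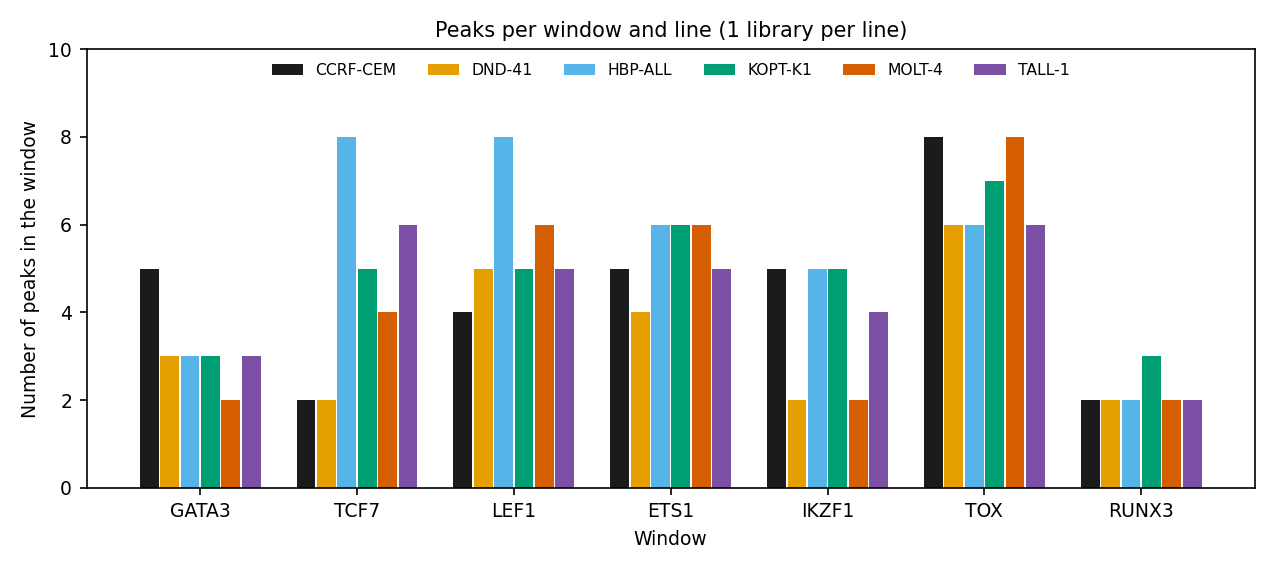
Number of peaks (y axis) in each window (x axis) for each of the 6 lines, 1 library per line. In the lists as deposited, the TCF7 bars run from 2 in CCRF-CEM and DND-41 to 8 in HBP-ALL, and the RUNX3 bars are 2 in 5 lines and 3 in KOPT-K1.

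TCF7, which encodes TCF-1, one of the first factors induced by Notch in thymic progenitors, showed the widest contrast in number of peaks in the lists as deposited. Its window, chromosome 5 from 133420000 to 133510000, held 8 peaks in HBP-ALL, 6 in TALL-1, 5 in KOPT-K1, 4 in MOLT-4 and 2 each in CCRF-CEM and DND-41. The peaks formed 8 regions, of which only the first and the fifth from the left held a peak in every line. The extra peaks of HBP-ALL, TALL-1, KOPT-K1 and MOLT-4 fell at 4 further regions shared by some of these lines, at 2 regions of a single line and at a second peak within the fifth region. With lists of equal length HBP-ALL kept 4 of its 8 peaks, fewer than TALL-1 with 6 and KOPT-K1 with 5 and as many as MOLT-4, while CCRF-CEM and DND-41 stayed at 2; at a −log10 p of at least 10 HBP-ALL, TALL-1 and MOLT-4 had 4 each, KOPT-K1 3, CCRF-CEM 2 and DND-41 1.

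TCF7 region 5, 133449923 to 133451468, had the higher median of the pair, with 54 tags in MOLT-4, 46 in TALL-1, 42 in HBP-ALL, 31 in DND-41, 30 in KOPT-K1 and 24 in CCRF-CEM. HBP-ALL and MOLT-4 had a separate second peak in its right part, at 133450798 to 133451468 and 133450941 to 133451286, with 32 tags each at the strongest summit. The other 4 lines had no second peak there, and their own peaks ended at or before 133450809. TCF7 region 1, 133422537 to 133423136, had 43 tags in MOLT-4, 36 in TALL-1, 35 in HBP-ALL, 34 in KOPT-K1, 32 in CCRF-CEM and 16 in DND-41. DND-41 stood below the other 5 lines, with a relative pileup of −1.07. In tags, its exact Poisson interval of 9.15 to 26.0 overlapped the lower ends of the intervals of the others except MOLT-4, 31.1 to 57.9. Put on the scale of relative pileup, its interval was also narrowly apart from that of CCRF-CEM. Over the pair of shared regions the median relative pileup of DND-41 was −0.70 from pileups and −0.07 from the authors' fold over local background. The fold median joins regions that differ: at region 1 the fold of DND-41, 3.92, was the lowest of the 6 lines (4.39 to 7.80 in the others), and at region 5 its fold of 7.09 was close to the highest (4.11 to 7.13 in the others).

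TCF7 region 2, 133426231 to 133426609, held a peak in HBP-ALL (44 tags), MOLT-4 (36), KOPT-K1 (27) and TALL-1 (22), and none in CCRF-CEM or DND-41. TCF7 region 7, 133468016 to 133468415, held 27 tags in HBP-ALL, 31 in KOPT-K1 and 27 in TALL-1. Regions 3 and 4, 133435912 to 133436371 and 133437512 to 133437903, were peaks of HBP-ALL and TALL-1 alone, with 15 and 17 tags at region 3 and 18 and 25 tags at region 4. HBP-ALL and TALL-1 thus shared 6 of the 8 regions, and CCRF-CEM and DND-41 shared the same 2. The line-only regions were region 6 in KOPT-K1 (133458141 to 133458523, 18 tags, −log10 p 7.24) and region 8 in HBP-ALL (133494090 to 133494321, 8 tags, −log10 p 5.24), close to the limit of 5 at which the lists begin.

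A missing peak is a missing call and does not show closed chromatin. To set the missing calls beside the depth of each library, the pileup of the lines with a peak was scaled to the line without one by the medians at shared regions and set beside the tags needed to reach a −log10 p of 5 over the scaled background. At TCF7 region 2 the scaled pileup was 25.0 tags in CCRF-CEM, where 17 were needed, and 32.3 in DND-41, where 20 were needed. At TCF7 region 7 it was 22.2 tags in CCRF-CEM (13 needed), 28.6 in DND-41 (15 needed) and 25.7 in MOLT-4 (14 needed). The scaled values, here and at the regions below, come only from lines whose peaks had passed this limit of 5. They are therefore mostly above the tags needed by construction, and the part of library depth in the missing calls was not tested. Over all regions of the windows with a peak in 3 or more lines, the scaled pileup reached the tags needed in 26 of 26 missing calls. Over all regions it did so in 164 of 186, and choosing regions where the other lines were high raised these shares.

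LEF1, the partner of TCF-1 that binds the same motif and takes beta-catenin as a cofactor, had the most line-only regions of the 7 windows. Its window, chromosome 4 from 108940000 to 109120000, held 17 regions, the most of the 7 windows, and none held a peak in every line. Of these, 11 were peaks of 1 line alone, 2 were shared by 2 lines, 2 by 4 and 2 by 5. Over all merged regions, 43.2% were peaks of 1 line and 22.6% held a peak in every line. The line-only calls ran from a −log10 p of 5.20 at region 4 to 15.7 at region 6. Sharing within single windows was not recomputed at a stricter threshold, and LEF1 is the extreme of the 7 windows. HBP-ALL had 8 peaks, MOLT-4 6, DND-41, KOPT-K1 and TALL-1 5 each, and CCRF-CEM 4.

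The tallest peaks lay in a cluster of 5 regions between 109087478 and 109094670. LEF1 region 14, 109089785 to 109090360, held 44 tags in HBP-ALL, 43 in DND-41, 41 in KOPT-K1 and 40 in MOLT-4, with summits within 53 bp, and no peak in CCRF-CEM or TALL-1. The 4 lines with the peak were alike, and the scaled pileup was 34.5 tags in CCRF-CEM, where 26 were needed, and 49.0 in TALL-1, where 33 were needed. These needs rest on backgrounds scaled from the other lines, 10.2 tags in CCRF-CEM and 14.5 in TALL-1. The lines' own backgrounds nearby were lower, at 3.91 tags in CCRF-CEM at region 17 and 5.38 in TALL-1 at region 15. LEF1 region 15, 109092613 to 109093156, was missed by CCRF-CEM alone and held 48 tags in DND-41, 42 in MOLT-4, 39 in HBP-ALL, 26 in KOPT-K1 and 25 in TALL-1. The scaled pileup for CCRF-CEM was 27.7 tags, where 22 were needed.

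LEF1 region 17, 109094136 to 109094670, was missed by HBP-ALL alone and held 38 tags in MOLT-4, 29 in DND-41, 24 in KOPT-K1 and 21 each in CCRF-CEM and TALL-1. LEF1 region 13, 109087478 to 109088182, was a peak of HBP-ALL (40 tags) and MOLT-4 (36), and region 16, 109093755 to 109093986, a peak of TALL-1 alone (22 tags). MOLT-4 therefore had peaks at 4 of the 5 regions of the cluster, the 4 lines TALL-1, KOPT-K1, HBP-ALL and DND-41 at 3, and CCRF-CEM at 1. The local background was high in the lines with the most tags here, from 10.2 to 14.2 tags at region 14, against 5.38 tags in TALL-1 at region 15, where MOLT-4 had 12.4; its part in the missing calls was not tested.

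Away from the cluster, LEF1 region 3, 108956960 to 108957854, held 34 tags in HBP-ALL, 32 in CCRF-CEM and 22 each in DND-41 and KOPT-K1, with summits within 23 bp, and none in MOLT-4 or TALL-1. It was the tallest peak of CCRF-CEM in this window. The strongest line-only region was region 6 in HBP-ALL, 108993422 to 108993807, with 27 tags and a −log10 p of 15.7. The other 9 line-only regions outside the cluster held 9 to 18 tags, 3 of them in HBP-ALL, 2 in CCRF-CEM, 2 in TALL-1 and 1 each in DND-41 and MOLT-4, and region 11 was shared by KOPT-K1 (14 tags) and MOLT-4 (16 tags). At a −log10 p of at least 10 the LEF1 window kept 5 peaks in HBP-ALL, 3 in DND-41, 2 each in CCRF-CEM, KOPT-K1 and MOLT-4, and 0 of the 5 peaks in TALL-1. With lists of equal length MOLT-4 kept all 6 peaks, against 5 in HBP-ALL, 4 in DND-41, 3 in KOPT-K1 and 2 in CCRF-CEM. The 5 peaks of TALL-1 stayed because its list is not cut.

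**Figure D5:**
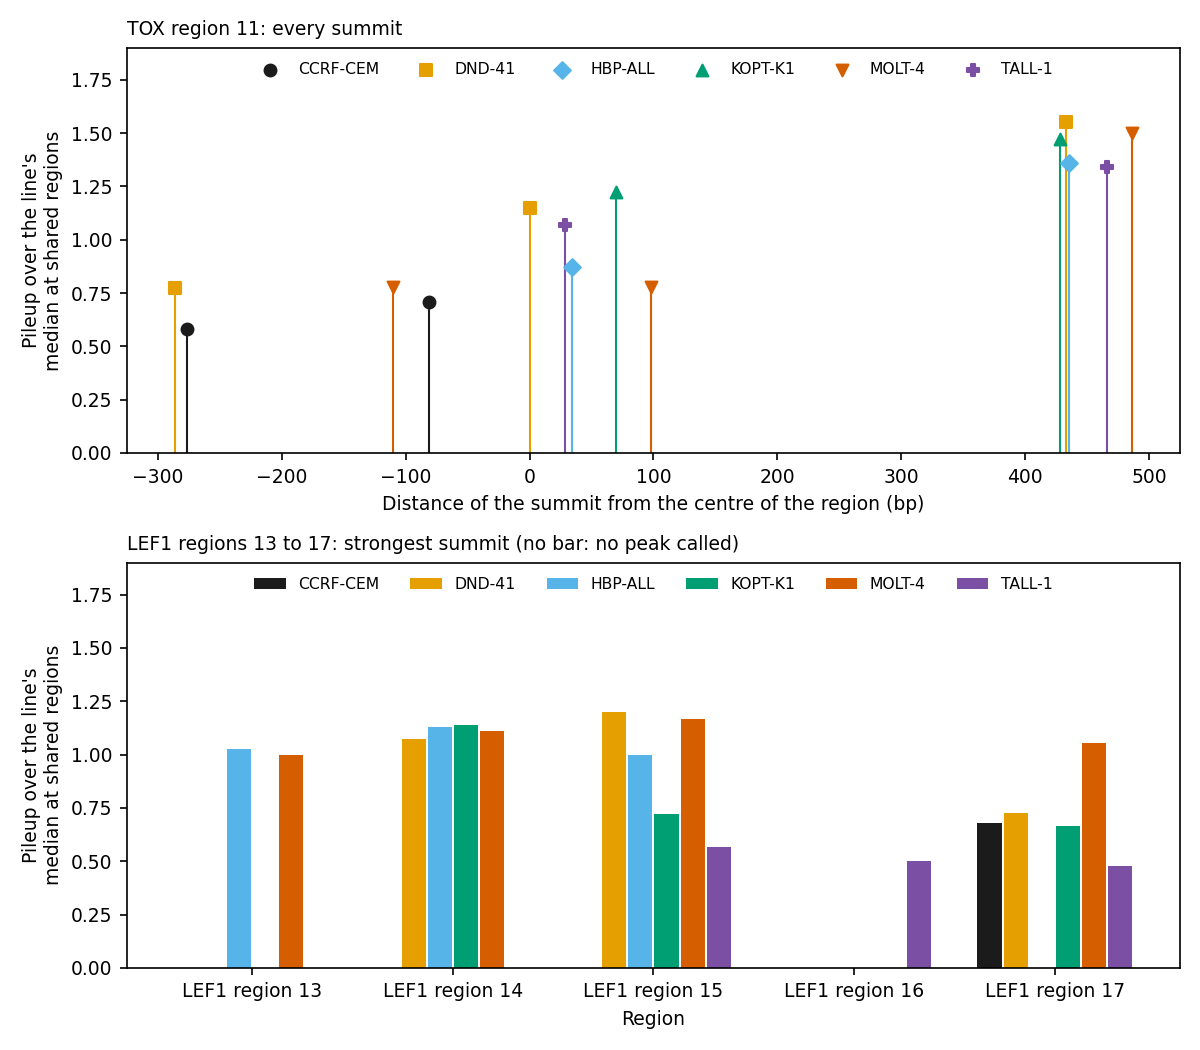
Pileup divided by the line's median at shared regions (y axis, both panels). Above, every summit of TOX region 11 by its distance in bp from the centre of the region (x axis): CCRF-CEM has no summit in the right-hand group, where the other 5 lines have their strongest. Below, LEF1 regions 13 to 17 with 1 bar per line and no bar where no peak was called: CCRF-CEM has a bar only at region 17.

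TOX, an HMG-box factor needed for CD4 T-cell development and for the persistence of exhausted CD8 cells, had the widest window, chromosome 8 from 59690000 to 60060000, with 12 regions. CCRF-CEM and MOLT-4 had 8 peaks there, KOPT-K1 7 and the other 3 lines 6 each; with lists of equal length the lines had 6 or 7, and at a −log10 p of at least 10 MOLT-4 kept 2. It held 4 regions shared by every line, the highest number of the 7 windows but not the highest share. The share was 33.3% of its regions, against 66.7% at RUNX3, 40.0% at GATA3 and 37.5% at ETS1. It was 25.0% at TCF7, 22.2% at IKZF1 and 0% at LEF1, and 22.6% over all merged regions. A stretch of 132910 bp without any region lay between TOX regions 3 and 4.

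TOX region 11, 60031005 to 60032487, held 62 tags in DND-41, 59 in TALL-1, 54 in MOLT-4, 53 each in HBP-ALL and KOPT-K1, and 22 in CCRF-CEM. CCRF-CEM stood apart with a relative pileup of −0.92, and its interval of 13.8 to 33.3 tags lay below those of the other lines, whose lowest bound was 39.7. The other 5 lines had their strongest summit between 60032172 and 60032226 and a weaker one of 28 to 47 tags between 60031752 and 60031838. The CCRF-CEM peak, 60031005 to 60031849, ended before the outer summit, and its own summits lay at 60031480 (18 tags) and 60031675 (22 tags). The low value of CCRF-CEM is thus a peak in another place within the merged region, and at the summit of the other lines it had no peak.

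At TOX region 1, 59713430 to 59714579, CCRF-CEM was instead the highest, with 59 tags, followed by DND-41 with 50, KOPT-K1 with 47, TALL-1 with 36, HBP-ALL with 31 and MOLT-4 with 30. TOX region 6, 59929943 to 59930545, ran from 36 tags in KOPT-K1 and 31 in HBP-ALL through 26 in TALL-1, 24 in DND-41 and 21 in CCRF-CEM to 15 in MOLT-4. TOX region 9, 60020218 to 60021018, ran from 25 tags in DND-41 and HBP-ALL through 21 in KOPT-K1 and 20 in CCRF-CEM to 14 in TALL-1 and 13 in MOLT-4. MOLT-4 was the lowest in tags at 3 of the 4 shared regions of the window, with a median relative pileup of −0.43, but at region 9 the intervals of all lines overlapped, and at region 6 only those of KOPT-K1 (25.2 to 49.8 tags) and MOLT-4 (8.40 to 24.7 tags) did not, which overlapped on the relative scale.

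TOX region 3, 59770919 to 59771355, was missed by HBP-ALL alone and held 38 tags in both CCRF-CEM and DND-41, 28 in TALL-1, 15 in KOPT-K1 and 12 in MOLT-4. The nearest HBP-ALL peak was 56553 bp away, and the scaled pileup was 24.7 tags where 11 were needed. TOX region 5, 59916670 to 59916908, was the strongest line-only region of the window, with 22 tags and a −log10 p of 17.6 in HBP-ALL. The other line-only regions were region 4 in KOPT-K1 (18 tags) and regions 7 and 10 in CCRF-CEM (13 and 14 tags). Region 2 held 12 or 13 tags in DND-41, KOPT-K1, MOLT-4 and TALL-1, region 8 was shared by CCRF-CEM (21 tags) and MOLT-4 (18 tags), and region 12 by HBP-ALL (21 tags) and MOLT-4 (15 tags).

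GATA3, the zinc-finger factor needed from the earliest T-cell progenitors on and later for helper cells of type 2, had a compact pattern. Its window, chromosome 10 from 8070000 to 8140000, held 5 regions, with peaks at all 5 in CCRF-CEM, at 3 each in DND-41, HBP-ALL, KOPT-K1 and TALL-1, and at 2 in MOLT-4. With lists of equal length CCRF-CEM, DND-41 and TALL-1 had 3 peaks each, KOPT-K1 and MOLT-4 2 and HBP-ALL 1, so that CCRF-CEM no longer stood out. The pair with a peak in every line lay side by side, 367 bp apart.

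GATA3 region 1, 8095312 to 8095947, held 75 tags in TALL-1, 47 each in HBP-ALL and KOPT-K1, 44 in CCRF-CEM, 42 in DND-41 and 34 in MOLT-4, with summits within 33 bp. GATA3 region 2, 8096315 to 8096862, held 27 tags in TALL-1, 28 in MOLT-4, 29 in KOPT-K1, 30 in HBP-ALL, 34 in DND-41 and 45 in CCRF-CEM. TALL-1 was thus the highest line at the first region (relative pileup 0.46) and the lowest at its neighbour (−0.45), while CCRF-CEM was near the mean at the first (0.12) and highest at the second (0.71). At region 2 the TALL-1 interval, 17.8 to 39.3 tags, held the counts of MOLT-4, KOPT-K1, HBP-ALL and DND-41. Summits there spread over 214 bp, from 8096431 in TALL-1 to 8096645 in CCRF-CEM, so these are heights at different positions. In CCRF-CEM the neighbours were of like height, and in TALL-1 the first was the taller by far. The mean summits of the neighbours were 1.03 kb apart in hg19, and GATA3 starts 4 and 5 are 1.05 kb apart in GRCh38.p14.

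The lines then divided to the right of the pair. GATA3 region 3, 8101962 to 8102538, held a peak in DND-41 (24 tags), CCRF-CEM (23) and TALL-1 (21), and region 4, 8103094 to 8103787, in CCRF-CEM (24), HBP-ALL (18) and KOPT-K1 (14). CCRF-CEM alone had both, DND-41 and TALL-1 had only the left one, HBP-ALL and KOPT-K1 only the right one, and MOLT-4 neither. The scaled pileups for the lines without a peak were 21.5 to 23.3 tags at region 3, where 18 or 19 were needed, and 18.6 to 22.8 tags at region 4, where 15 to 17 were needed, so the margins were small. Region 5, 8130533 to 8130749, was a peak of CCRF-CEM alone with 12 tags and a −log10 p of 8.79.

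RUNX3, the Runt-domain factor that silences CD4 and directs the CD8 lineage, had the fewest regions for its width. Its window, chromosome 1 from 25200000 to 25320000, held 3 regions, of which 2 had a peak in every line. RUNX3 region 1, 25256297 to 25257141, held 54 tags in HBP-ALL, 42 in KOPT-K1, 38 in TALL-1, 23 in DND-41, 22 in CCRF-CEM and 14 in MOLT-4. Its range of relative pileups, 1.86, was the widest of the 15 shared regions, from 0.87 in HBP-ALL to −0.99 in MOLT-4, and the exact intervals of these lines, 40.6 to 70.5 and 7.65 to 23.5 tags, did not overlap.

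RUNX3 region 2, 25291314 to 25291985, was more even, with 37 tags in HBP-ALL, 36 in KOPT-K1, 33 each in DND-41 and TALL-1, 32 in CCRF-CEM and 18 in MOLT-4. MOLT-4 was again the lowest, at −0.70, but here its interval, 10.7 to 28.4 tags, overlapped those of the other lines. Over the pair the median relative pileup of MOLT-4 was −0.84 from pileups and −0.29 from the authors' fold over local background, a smaller shortfall in the same direction. The mean summits of the pair were 34.8 kb apart in hg19, and the RefSeq starts of RUNX3 are 34.7 kb apart in GRCh38.p14. KOPT-K1 alone had a further region, 25307797 to 25308307, with 15 tags and a −log10 p of 7.37, and it was lost at a −log10 p of at least 10.

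Like spacing of peaks and starts does not place a region at a promoter, because the builds differ and many pairs were compared. In all, 289 comparisons of a pair of starts with a pair of regions of the same gene gave 10 within 300 bp, the pairs of GATA3 and RUNX3 above among them. The number of comparisons differed by gene, with 150 at GATA3 and 3 at RUNX3.

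ETS1, the ETS-domain factor that is abundant in lymphocytes and acts beside RUNX proteins, held the tallest region of the 7 windows. Its window, chromosome 11 from 128300000 to 128490000, held 8 regions, 3 of them with a peak in every line, and the number of peaks was even, at 6 in HBP-ALL, KOPT-K1 and MOLT-4, 5 in CCRF-CEM and TALL-1 and 4 in DND-41. ETS1 region 4, 128391960 to 128392736, held 60 tags in HBP-ALL, 63 in MOLT-4, 67 in KOPT-K1, 68 in DND-41, 70 in TALL-1 and 85 in CCRF-CEM. CCRF-CEM was the highest although its library had the lowest median pileup, with a relative pileup of 0.52 against −0.21 to −0.01 in the other 5 lines.

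ETS1 region 2, 128346518 to 128347145, varied most, with 52 tags in HBP-ALL, 43 in CCRF-CEM and 35 in TALL-1, against 18 in DND-41, 25 in KOPT-K1 and 22 in MOLT-4. Its relative pileups ran from 0.75 in HBP-ALL to −0.86 in DND-41, and the intervals of these lines, 38.8 to 68.2 and 10.7 to 28.4 tags, did not overlap. ETS1 region 8, 128480802 to 128481515, was even, with 35 tags each in CCRF-CEM and MOLT-4, 39 in TALL-1, 46 in KOPT-K1, 48 in HBP-ALL and 55 in DND-41, and the intervals of all lines overlapped. DND-41 was thus the lowest line at region 2 and the highest at region 8 of the same locus.

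ETS1 region 1, 128341060 to 128341537, was missed by TALL-1 alone and held 41 tags in HBP-ALL, 27 in KOPT-K1, 26 in DND-41, 24 in MOLT-4 and 21 in CCRF-CEM. The scaled pileup for TALL-1 was 32.8 tags, where 15 were needed. ETS1 region 5, 128395552 to 128395880, was a peak of HBP-ALL alone and the tallest line-only region of the 7 windows, with 35 tags and a −log10 p of 12.9, and it lay 2815 bp from region 4. Region 3 was shared by KOPT-K1 (22 tags), HBP-ALL (17), TALL-1 (15) and MOLT-4 (14), region 7 by TALL-1 (16), CCRF-CEM (14) and MOLT-4 (10), and region 6 was a peak of KOPT-K1 alone (14 tags).

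IKZF1, which encodes Ikaros, a zinc-finger factor of all lymphoid lineages whose loss is known from acute leukaemias, had peaks at 9 regions of its window, chromosome 7 from 50320000 to 50500000. CCRF-CEM, HBP-ALL and KOPT-K1 had 5 peaks, TALL-1 4, and DND-41 and MOLT-4 2 each. With lists of equal length HBP-ALL and KOPT-K1 had 3, and CCRF-CEM had 2, as many as DND-41 and MOLT-4. TALL-1, whose list is not cut, stayed at 4. At a −log10 p of at least 10 the lines had 1 to 3. DND-41 and MOLT-4 had peaks only at the 2 regions with a peak in every line. IKZF1 region 6, 50427957 to 50428693, had its strongest summits within 24 bp in all lines, the closest of the 15 shared regions. It held 68 tags in DND-41, 51 each in CCRF-CEM and TALL-1, 45 in HBP-ALL, 35 in MOLT-4 and 34 in KOPT-K1, so that DND-41, with few peaks in the window, had the tallest one.

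IKZF1 region 2, 50343434 to 50344718, was broad, with strongest summits up to 806 bp apart, the farthest of the 15 shared regions. CCRF-CEM had its summit at 50344432 and MOLT-4 at 50343626, while those of the other 4 lines lay between 50343793 and 50343949. Heights were nonetheless the most even of all, with 21 tags in MOLT-4, 23 in CCRF-CEM, 24 in KOPT-K1, 30 in HBP-ALL, 32 in DND-41 and 33 in TALL-1, a relative range of 0.44. They are heights at different positions: the CCRF-CEM peak, 50344122 to 50344708, did not overlap the KOPT-K1 peak, 50343710 to 50344014. The other 7 regions were each peaks of 1 or 2 lines. The tallest was region 8, 50477956 to 50478366, with 37 tags in KOPT-K1 (−log10 p 23.1) and 9 in CCRF-CEM.

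IKZF1 region 9, 50485870 to 50486324, held 19 tags in HBP-ALL and 9 in CCRF-CEM, region 3 held 23 in CCRF-CEM and 19 in HBP-ALL, and region 1 held 11 in TALL-1 and 8 in KOPT-K1. CCRF-CEM had a share in 3 of the 4 regions of 2 lines, with summits within 122 bp of the partner's. The strongest line-only region, region 5 in KOPT-K1, 50413807 to 50414050, held 13 tags with a −log10 p of 6.53, and the others were region 4 in HBP-ALL (11 tags) and region 7 in TALL-1 (12 tags).

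Over the 6 windows with shared regions, no line had a median relative pileup above 0, or below 0, in every window. From fold in place of pileup the medians of CCRF-CEM were above 0 in all 6, from 0.04 at IKZF1 to 0.43 at ETS1. HBP-ALL had the most line-only regions, 8, of which 4 were at LEF1, followed by CCRF-CEM and KOPT-K1 with 5, TALL-1 with 4, and DND-41 and MOLT-4 with 1 each. Those of HBP-ALL ran in −log10 p from 5.20 at LEF1 region 4 to 17.6 at TOX region 5. List lengths differ, with 22055 peaks in HBP-ALL against 16507 in TALL-1. Line-only shares over all merged regions were not computed by line, so this order describes the lists. For all lines together the share was 38.7% in the windows, against 43.2% of all. MOLT-4 had the lowest median relative pileup at the 15 shared regions, −0.33, yet was the highest line at both shared TCF7 regions (0.53 and 0.64); from fold in place of pileup its TCF7 median was 0.17, below the 0.24 of CCRF-CEM. CCRF-CEM had the highest median, 0.24, with single values from −0.92 at TOX region 11 to 0.74 at TOX region 1. The medians of HBP-ALL (0.14), KOPT-K1 (0.13) and TALL-1 (−0.07) lay between, as did that of DND-41, at about 0.

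Measured by regions shared, DND-41 and MOLT-4 were the closest pair, with 21 regions in both of 32 in either (65.6%, against 56.5% over all merged regions). CCRF-CEM and HBP-ALL were the farthest, with 20 of 48 (41.7%, against 40.3%). Among all pairs of lines, CCRF-CEM and DND-41 differed most from their share over all regions, at 57.1% in the windows, against 45.4%. This rests on 20 regions in both of 35 in either, and was picked as the largest difference, without an interval. The 15 regions with a peak in every line count towards every pair, and 0 regions were shared by this pair only. These shares depend on the number of peaks in each list and are given as a description.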

How the data were processed

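Open chromatin of 6 T-ALL lines was analysed from 1 peak list per library. Bowtie2, Picard, SAMtools and MACS2 2.1.1.2016030 are named in the submitters' processing notes, with hg19 as genome build. Settings, step order and whether reads were shifted for Tn5 are not given in the labels used here. The total number of reads is not known. Each line of the deposited lists is 1 summit with the authors' score, its fold (a ratio of tags to local background) and their −log10 p-value and −log10 q-value. Lists that call more or fewer weak peaks change every count of peaks.

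The 7 windows, the motifs and the naming rule were chosen with earlier results of these data known. Summit lines of 1 interval were joined and the strongest summit kept, and those on chromosomes 1 to 22 and X that shared 1 bp or more between lines were merged into regions. The pileup of t tags over background c was recovered from the fold, (t + 1) / (c + 1), and the Poisson p-value, to within 0.001 of the −log10 p, for 99.95% to 99.99% of summit lines per library and for every peak in the windows. Shares and pileups have exact binomial and Poisson 95% intervals, which cover counting error only. Apart from Dixon's gap ratio, used to pick out single values over the 6 lines, no test between lines was made.

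In each window the rule names the shared region with the highest median pileup, the shared region with the widest range of relative pileup, the line-only region with the highest −log10 p and the region missed by 1 line with the highest median pileup; no run of 3 or more neighbouring regions with the same lines was found. The other regions are given so that every region is accounted for, and the selection among them, the scaled pileups, the Poisson intervals and the spacing comparison were added after values were seen. Alternatives were a stricter threshold, equal list lengths, wider windows, single summits, chaining of summits, leaving out CCRF-CEM, centring by chromosome and fold in place of pileup. Counts of single windows were recomputed under the first 2 of these, chosen after seeing the data. The recovery, merging and relative pileups were tested on data simulated with the same formulas and with regions set well apart. This checks the code only. It cannot show that the deposited values follow these formulas, or how merging treats neighbouring peaks that nearly touch. Promoters came from RefSeq, GRCh38.p14. The software was matplotlib 3.10.9, scipy 1.17.1, pandas 2.3.3 and numpy 2.4.6 under Python 3.11.15.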

Additional observations from a re-analysis of the deposited data

Results flagged for a closer look

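Of 23 values compared over the 6 lines (peak numbers of the 7 windows, total peaks and relative pileups at the 15 shared regions), 5 had a sample far from the others by Dixon's gap ratio at its 95% critical value, and chance flags about 1 in 20 such values where they are not tied. CCRF-CEM had 5 peaks in the GATA3 window, against 2 or 3 in the other lines, but 3 with lists of equal length, as many as DND-41 and TALL-1. KOPT-K1 had 3 peaks in the RUNX3 window, against 2 in every other line; with 5 tied counts any differing line is picked out, and the extra peak was lost at a −log10 p of at least 10. DND-41 had a relative pileup of −1.07 at TCF7 region 1, against −0.02 to 0.53 in the others. CCRF-CEM had 0.52 at ETS1 region 4, against −0.21 to −0.01. CCRF-CEM had −0.92 at TOX region 11, against 0.08 to 0.27, and its peak there ended before the strongest summit of the other 5 lines.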

How the results depend on the processing

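With 1 library per line no replicate could be left out, and read depth is unknown. No paired analysis was possible because each line has 1 library. Requiring a −log10 p of at least 10 in every line moved 4 counts by more than 1.5 times: the peaks in the windows came to 15 in MOLT-4 (30 in the lists as deposited) and 16 in TALL-1 (31), the merged regions to 39 (62) and the regions with a peak in every line to 9 (15). The cause was not tested beyond the alternative's own construction, which keeps fewer peaks. The other 35 recomputed totals over the 7 windows stayed within 1.5 times, but equal list lengths changed their order between lines. Of the 42 peak counts of single windows and lines, 21 moved by more than 1.5 times with the stricter threshold and 10 with equal list lengths, such as TCF7 in HBP-ALL (4 with either, 8 as deposited). Without CCRF-CEM, 57 regions remained, of which 16 held a peak in each of the 5 lines and 23 a peak in 1 line. Of 36 median relative pileups per window and line, 0 moved by 0.5 or more with centring by chromosome, and 2 did with fold in place of pileup, TCF7 in DND-41 (−0.07) and RUNX3 in MOLT-4 (−0.29). Signs changed in 3 of the 36 with centring by chromosome and in 8 with fold.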
